A study of Homo sapiens with 17 samples.

Results

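The cluster of MIR183, MIR96 and MIR182 is a group of 3 microRNA hairpins on the minus strand of human chromosome 7. Its members were all alignments of 18 to 27 nt on that strand, within the hg19 hairpin windows 129414745-129414854 (MIR183), 129414532-129414609 (MIR96) and 129410223-129410332 (MIR182). The rule found 166 distinct alignments, of 6222932 of that length in the series. MIR183 held 75 of them, MIR96 held 32 and MIR182 held 59.

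K562, a line of human erythroleukemia cells, was used for small RNA sequencing; the cells carried an inducible short hairpin RNA against Drosha (genotype Drosha_shRNA_KD), which the control cultures carried too. The groups were cells kept with 1 µg/mL doxycycline (Dox) and cells kept with water, for 3 d (2 libraries each), 13 d (3 each) or 31 d (3 each), as independent biological replicates. Each of the 8 deposited tables sets a Dox library against its water counterpart, and 1 untreated library was not analysed here. Drosha is the nuclease that frees hairpins from primary microRNA transcripts, and the design asks which small RNAs depend on it.

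Drosha, with its partner DGCR8, cuts the primary transcript at the base of each hairpin, and Dicer then removes the loop to leave a 5p and a 3p strand. The seed, the bases near the 5′ end of the strand loaded into an Argonaute protein, pairs with target messenger RNAs, so a strand with another 5′ end has another seed. The cluster is best known from sensory organs such as the retina and the inner ear, and it is expressed in many cancers.

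The mature sequences are shown because the cluster shares most of its seed and because the results below turn on 5′ ends. They are from RefSeq (GRCh38.p14), written 5′ to 3′, with the seed (bases 2 to 8) in capitals.
miR-183-5p: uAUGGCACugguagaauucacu
miR-96-5p: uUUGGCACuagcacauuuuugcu
miR-182-5p: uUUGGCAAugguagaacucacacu
miR-183-3p: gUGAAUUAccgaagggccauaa
miR-96-3p: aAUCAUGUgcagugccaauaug
miR-182-3p: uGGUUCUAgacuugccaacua
The seeds of miR-183-5p and miR-96-5p were identical at 6 of 7 bases, as were those of miR-96-5p and miR-182-5p. The seeds of miR-183-5p and miR-182-5p were identical at 5 of 7 bases. The seeds of the 3p strands were different from these and from each other.

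The hairpin of MIR96 is shown because a fragment between its arms had the most extreme 3 d ratios of the cluster, and the hairpin of MIR182 for comparison. Mature arms are in capitals.
MIR96: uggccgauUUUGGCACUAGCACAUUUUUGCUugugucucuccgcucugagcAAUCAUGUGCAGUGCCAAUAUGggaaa
MIR182: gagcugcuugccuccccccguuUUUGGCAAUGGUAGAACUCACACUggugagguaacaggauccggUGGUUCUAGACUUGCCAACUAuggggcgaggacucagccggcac
On hg19 the arms lay at chr7:129414807-129414828 (miR-183-5p), chr7:129414768-129414789 (miR-183-3p), chr7:129414579-129414601 (miR-96-5p), chr7:129414537-129414558 (miR-96-3p), chr7:129410287-129410310 (miR-182-5p) and chr7:129410246-129410266 (miR-182-3p). MIR183 and MIR96 were separated by 135 nt, and MIR96 and MIR182 by 4199 nt.

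The value used throughout was the authors' deposited ratio of 1 library to the other, on a log2 scale. Which library was divided by which is stated by neither tables nor labels. A positive value therefore means more in the numerator library, whichever that was, and all tables were assumed to have been divided alike. The ratio is 0 where the numerator library has no reads, and no depth per library is given. Tables differed in their centre. Over the 11770 alignments listed above 0 throughout, the median log2 ratio was 0.81 (3 d, replicate 1), 1.58 (3 d, replicate 3), 0.61, -0.26 and -1.03 (13 d, in order of number), and -0.13, -0.99 and -0.61 (31 d). These shifts move with the differences between days below, which are therefore also given after centring each table on this median. Fewer cells holding a small RNA and less of it per cell cannot be told apart.

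Alignments found throughout the tables lay mostly on the annotated arms. Of the 166 alignments, 51 were listed in all 8 tables and 47 had a ratio above 0 in all 8, of which 25 were in MIR183, 6 in MIR96 and 16 in MIR182. The 5p arms held 41 of those 47: 22 in miR-183-5p, 5 in miR-96-5p and 14 in miR-182-5p. The 3p arms held 3 (miR-183-3p), 2 (miR-182-3p) and 0 (miR-96-3p). The last of the 47 lay between the arms of MIR96. A further 54 alignments were above 0 in none of the tables. A table listed 83 to 104 of the members, with a ratio of 0 for 6.02% to 31.7% of them, against 79.7% to 94.1% of all alignments of that length.

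**Figure D1:**
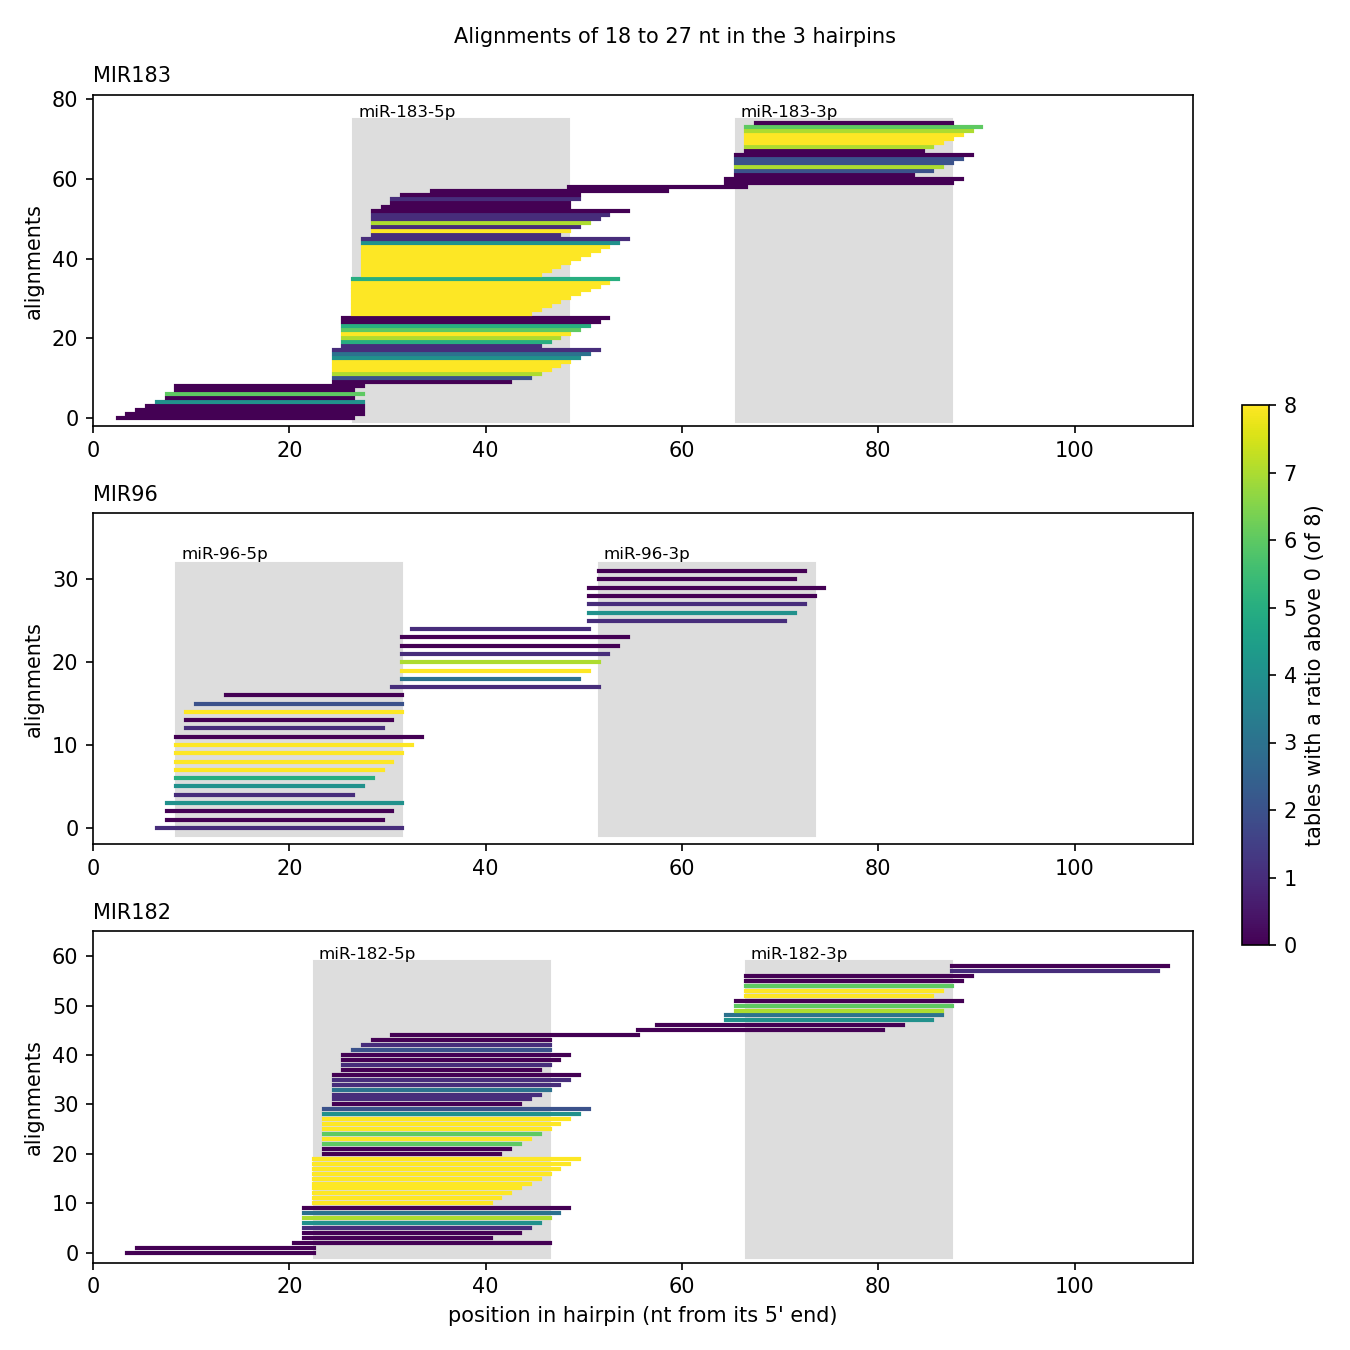
Each line is 1 alignment of 18 to 27 nt, drawn by its position in the hairpin (nt from the 5′ end); colour gives in how many of the 8 tables its ratio was above 0, and grey blocks are the annotated arms. Alignments above 0 in all 8 tables gather on the 5p arms, with common 5′ ends and varied 3′ ends, and 1 lies between the arms of MIR96.

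Alignments with a common 5′ end were treated as a stack where at least 3 of them were above 0 in all 8 tables, and in each table a stack took the median of its members' log2 ratios. The series held 1124 stacks, of which 7 were in the cluster: 1 for miR-96-5p, 2 for miR-182-5p, 3 for miR-183-5p and 1 for miR-183-3p. Each was tested against 0 by day with limma, adjusted by Benjamini-Hochberg over all 1124 stacks at 0.05. The standard errors draw on the spread of all stacks as well as on the stack's own tables.

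The 5p strand of MIR182, the stack with the most alignments in the cluster (10), had log2 ratios of 1.71 and 2.43 at 3 d, then -0.03, 0.15 and -0.83 at 13 d, and 0.12, -2.56 and -0.78 at 31 d. Both 3 d tables lay above all 6 later ones, as did the 3 d medians of all alignments (0.81 and 1.58, against at most 0.61 later). The mean and SD were 2.07 ± 0.51 for the 2 tables of 3 d, -0.24 ± 0.52 for the 3 of 13 d and -1.07 ± 1.36 for the 3 of 31 d, and no day passed the test (limma, adjusted p = 0.0514, 0.793 and 0.18). At 31 d against 3 d it fell by 3.15 on the log2 scale (SE 0.95, adjusted p = 0.0139). The second stack of this arm, with its 5′ end 1 nt downstream, was higher at 3 d (2.36, SE 0.74, adjusted p = 0.0335) and fell by 3.90 at 31 d against 3 d (SE 0.95, adjusted p = 0.00347). Centred, these were 1.17 (adjusted p = 0.22) and -2.13 (adjusted p = 0.0509). The 3 d value had adjusted p = 0.0631 (2.85) without the first replicate at 3 d, 0.336 (1.87) without the third at 3 d and 0.0529 without the third at 31 d, and the difference was -3.41 (adjusted p = 0.0554) without the third at 3 d.

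The 5p strand of MIR96, whose seed variants cause inherited hearing loss, had log2 ratios of 0.04 and 2.91 at 3 d, then 0.49, 0.57 and -1.59 at 13 d, and -0.56, -2.90 and -1.57 at 31 d. The 3 d tables were far apart, with 1 near 0, and all 3 tables at 31 d were below 0. The mean and SD were 1.47 ± 2.03 for 3 d, -0.18 ± 1.22 for 13 d and -1.67 ± 1.17 for 31 d, and no day passed the test (limma, adjusted p = 0.169, 0.868 and 0.0671). At 31 d against 3 d it fell by 3.15 (SE 1.08, adjusted p = 0.027).

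The 5p strand of MIR183 at its annotated 5′ end had log2 ratios of 1.18 and 1.39 at 3 d, then 1.05, 0.38 and -1.48 at 13 d, and 0.52, -1.59 and 0.18 at 31 d. Both 3 d tables lay above all 6 later ones, as did the 3 d medians of all alignments. How many of all stacks separate in this way, as this one and miR-182-5p do, was not counted. At 13 d and at 31 d the values lay on both sides of 0. No day and no difference between days passed the test for this stack (limma, adjusted p = 0.191 at 3 d and 0.212 for 31 d minus 3 d, -1.58, SE 0.99).

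The falls of miR-182-5p and miR-96-5p at 31 d against 3 d did not outlast centring each table on its median, which left -1.38 for both (limma, adjusted p = 0.15 for miR-182-5p and 0.196 for miR-96-5p). The difference for miR-182-5p was -2.40 (adjusted p = 0.068) without the second replicate at 31 d and -2.79 (adjusted p = 0.104) without the third at 3 d. That for miR-96-5p was -1.71 (adjusted p = 0.324) without the third at 3 d, -2.54 (adjusted p = 0.09) without the second at 31 d and -3.20 (adjusted p = 0.0514) without the third at 31 d.

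**Figure D2:**
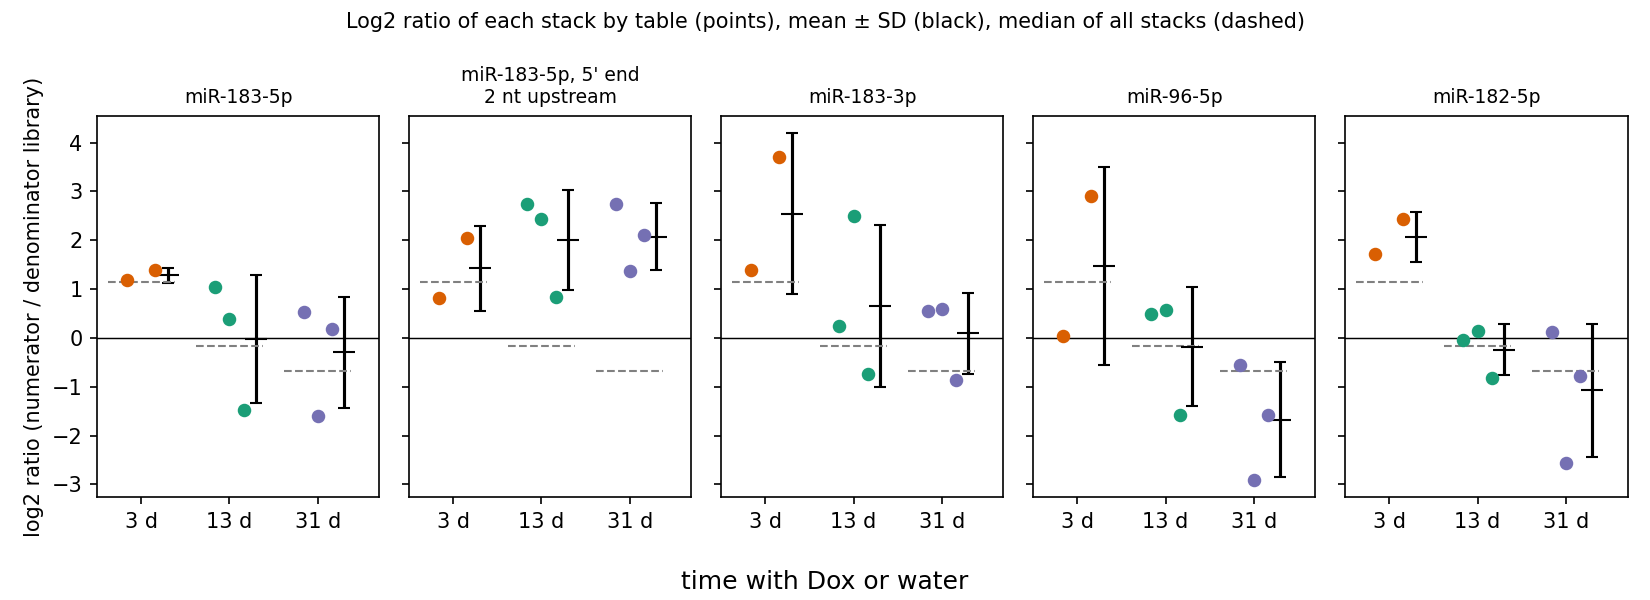
Log2 ratio (y axis) of 5 stacks of the cluster by day (x axis); points are tables, black marks the mean and SD, and dashed lines the median of all 1124 stacks. The stacks of miR-182-5p and miR-96-5p lie lower at 31 d than at 3 d, along with the dashed median, whereas the 5′ end 2 nt upstream of miR-183-5p stays above 0 in every table.

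The 3p strand of MIR183 had 1 stack, which began 1 nt downstream of the annotated 5′ end. Its log2 ratios were 1.38 and 3.71 at 3 d, then 0.24, 2.49 and -0.75 at 13 d, and 0.55, 0.59 and -0.86 at 31 d. It was higher at 3 d (2.55, SE 0.83, limma adjusted p = 0.0379), with means of 0.66 and 0.09 at 13 d and 31 d that did not pass. Without the third replicate at 3 d the 3 d value was 1.38 (adjusted p = 0.519), without the third at 31 d the adjusted p was 0.0528, and centring gave 1.36 (adjusted p = 0.241). The alignment matching the annotated 3p strand exactly was above 0 in 2 tables only.

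The 3p strand of MIR182 had no stack. Of its 10 alignments the 2 above 0 in all tables were the 19-nt and 20-nt forms at the annotated 5′ end. The 20-nt form had log2 ratios of 0.83 and 2.99 at 3 d, then 0.75, 0.45 and -0.43 at 13 d, and 0.06, -0.61 and -1.45 at 31 d. The 21-nt form that began 1 nt upstream was lower at 31 d (-2.64, SE 0.83, limma over single alignments, adjusted p = 0.0447) and differed between 31 d and 3 d by -4.81 (SE 1.31, adjusted p = 0.00929). Neither call held after centring or centring by length. The 3p strand of MIR96 had 7 alignments, none above 0 in all tables of a day, so it could not be tested.

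Counted over the 7 stacks, 2 were higher at 3 d, against 19.2% of all stacks. At 13 d 1 was higher (10.9% of all) and 0 were lower (27.1% of all), with 1 of 7 at an unadjusted p under 0.05, against 45.6% of all stacks. At 31 d 1 was higher (7.47% of all) and 0 were lower (25.6%), with 3 of 7 at an unadjusted p under 0.05 (43.6% of all). At 31 d against 3 d 3 were lower, against 35.5% of all stacks, and at 13 d against 3 d 0 were lower (35.2%), with 2 of 7 under 0.05 unadjusted (46.3% of all). At 31 d against 13 d limma called 0 stacks of the cluster and 0.0% of all, with 0 and 108 stacks (9.61%) under 0.05 unadjusted. After centring, and after centring by length, 0 of the 7 were higher at 3 d and 0 were lower at 31 d against 3 d, where 1 was higher. Centring left 1 of the 7 higher at 13 d (207 of all 1124 stacks) and 2 at 31 d (185 of all). Centring by length left 2 higher at 13 d (275 of all) and 2 at 31 d (252 of all). Over all stacks, centring by length gave 78 higher and 212 lower at 3 d, and 279 higher and 222 lower at 31 d against 3 d. Over all stacks, centring gave 60 higher and 213 lower at 3 d, against 216 and 35 uncentred, and 239 higher and 224 lower at 31 d against 3 d, against 58 and 399 uncentred. For 3, 13 and 31 d, the 7 stacks had medians of 1.89, -0.0018 and -0.29, beside 1.15, -0.16 and -0.68 over all stacks. Over 166 sides of two-arm loci outside the cluster (stack pairs spaced like the arms of a hairpin) the medians were 1.53, -1.03 and -0.85. The median of the 7 lay above both on each day, but over the 59 single alignments tested at 31 d the median was -0.40, below the -0.25 of all alignments, and none of these differences was tested.

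Over single alignments, 66, 52 and 59 members could be tested at 3, 13 and 31 d. At 3 d 2 were higher (limma, 4.75% of all tested), at 13 d none were higher (9.56%) or lower (12.0%), with 5 of 52 under 0.05 unadjusted (34.5% of all), and at 31 d 2 were higher (2.33%) and 3 lower (6.94%). At 13 d against 3 d 2 of 50 were lower (22.6%), at 31 d against 3 d 14 of 53 were lower (25.9%), and at 31 d against 13 d 0 of 49 were called (0.0%) and 0 reached 0.05 unadjusted (11.2% of all). The 14 held 8 alignments of miR-182-5p, 3 of miR-96-5p, and 1 each of miR-182-3p, miR-183-5p and the MIR96 loop. The exact mature forms of miR-182-5p and miR-96-5p were among the 14, at -3.58 (SE 1.26, adjusted p = 0.0338) and -3.70 (SE 1.33, adjusted p = 0.0372). Centring left 4 higher and 0 lower at 31 d (992 and 1197 of all 42925). Centring by length left 7 higher and 0 lower (2098 and 2030 of all). At 31 d against 3 d both centrings left 1 lower, the loop fragment, so that neither exact mature form passed. There 3 were higher after centring and 4 after centring by length. Over all 16549 alignments that difference was 523 higher and 4290 lower uncentred. It was 1635 higher and 995 lower centred, and 2568 higher and 1548 lower centred by length. Called at 3 d were the loop fragment and a 24-nt form of miR-183-5p that began 1 nt upstream (3.83, SE 0.98, adjusted p = 0.0184). The 2 higher at 31 d both began 2 nt upstream of the annotated 5′ end of miR-183-5p. Without the third replicate at 3 d the 3 d count was 1. At 31 d it was 3 without the second replicate at 13 d, and 0 without the second or without the third at 31 d.

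Besides its annotated 5′ end, miR-183-5p had stacks at 2 other 5′ ends. The stack of 3 alignments that began 2 nt upstream of the annotated 5′ end, at position 129414830, had log2 ratios of 0.81 and 2.04 at 3 d, then 2.75, 2.45 and 0.84 at 13 d, and 2.73, 1.37 and 2.12 at 31 d. All 8 tables were above 0, unlike those of every other stack of the cluster. It was higher at 13 d (2.01, SE 0.59, limma adjusted p = 0.0114) and at 31 d (2.07, SE 0.59, adjusted p = 0.0112), a fold of 4.03 and 4.21. Uncentred, it was the only stack of the cluster called on either day, which did not hold for every centring. With each table centred, it rose at 31 d against 3 d by 2.41 (adjusted p = 0.0107) and at 13 d against 3 d by 2.0 (adjusted p = 0.0216), where the uncentred differences of 0.65 and 0.59 did not pass. Each call rested on 3 tables: at 13 d it was 1.64 (adjusted p = 0.0794) without the first replicate and 1.79 (adjusted p = 0.101) without the second. At 31 d it was 1.74 (adjusted p = 0.0832) without the first replicate and 2.05 (adjusted p = 0.0741) without the third.

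Compared within a table, over the 22-nt to 24-nt forms of both 5′ ends, the upstream end minus the annotated end gave -0.83 and -0.52 in the 3 d tables, 1.72, 2.27 and 2.32 in those of 13 d, and 2.43, 3.62 and 2.62 in those of 31 d. Both 3 d medians over these lengths were below 0, all 6 later ones were above it, and the groups did not overlap. How many other pairs of stacks separate so was not counted. At 24 nt the upstream end was the higher in both 3 d tables (2.49 against 1.93, and 3.43 against 2.84). At 22 and 23 nt it was the lower. Over whole stacks, not matched on length, it was 0.81 against 1.18 in the first replicate at 3 d. In the third it was 2.04 against 1.39. Over the 6 later tables the mean was 2.50 ± 0.63 (SD, n = 6). The exact two-sided sign-flip permutation test gave p = 0.03125, the smallest that 6 tables allow, and adjusted p = 0.109 over 14 such tests. Later days minus 3 d was 3.17 (exact permutation test over tables, p = 0.0357, the smallest possible, and adjusted p = 0.25 over 7 comparisons). Neither passed after adjustment. These comparisons were chosen after the values were seen, and they share the annotated form within each table.

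The 5′ end 1 nt downstream of the annotated one was above it in 8 of 8 tables, by 0.05 to 1.04 on the log2 scale over forms of 18 to 25 nt (mean 0.51 ± 0.38, SD, n = 8). Its stack had log2 ratios of 1.45 and 2.33 at 3 d, then 1.67, 0.80 and -0.40 at 13 d, and 1.00, -0.16 and 0.69 at 31 d, and no day was called (limma, adjusted p = 0.0587 at 3 d). The exact sign-flip test gave p = 0.00781, the smallest that 8 tables allow, and adjusted p = 0.109. As medians over equal lengths, the 5′ ends 2 nt upstream and 1 nt downstream were thus above the annotated end in every table of 13 d and 31 d. The 5′ end 1 nt upstream had no stack and was not compared. Its single forms went both ways. In the second replicate at 13 d it was -1.26 against 0.14 at 22 nt, and 0.83 against -0.41 at 23 nt. For miR-182-5p the 5′ end 1 nt downstream minus the annotated end ran from -0.67 to 1.42 (mean 0.10 ± 0.64, SD, n = 8, exact p = 0.727), so it fell on both sides of 0.

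**Figure D3:**
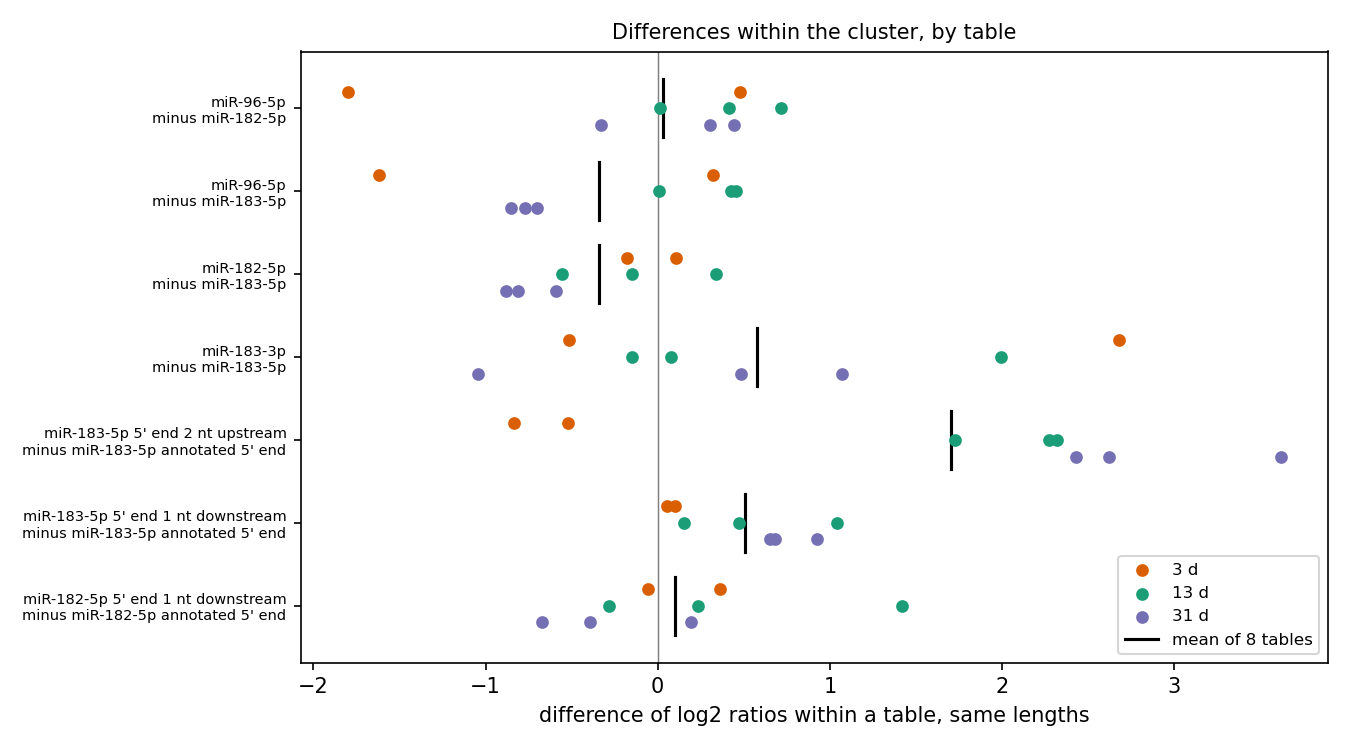
Each row is a difference of log2 ratios between a pair of stacks within a table (x axis), over forms of equal length; points are tables, coloured by day, and black marks the mean of 8 tables. For the 5′ end 2 nt upstream of miR-183-5p, the median difference is below 0 in both 3 d tables. In the 6 later ones it is 1.72 to 3.62. At 24 nt alone the 3 d differences are above 0.

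Strands were compared with each other in the same way. Over equal lengths, miR-96-5p minus miR-182-5p averaged 0.03 ± 0.81, miR-96-5p minus miR-183-5p averaged -0.34 ± 0.75, and miR-182-5p minus miR-183-5p averaged -0.34 ± 0.44 (SD, n = 8). At 31 d miR-96-5p and miR-182-5p were each below miR-183-5p in all 3 tables, by 0.59 to 0.88 for miR-182-5p. The 3p minus the 5p strand of MIR183 averaged 0.57 ± 1.27. None of the 4 passed an exact sign-flip test, the lowest p being 0.0781 (adjusted p = 0.219).

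Between the arms of MIR96 lies a loop of 20 nt, the lower-case run ugugucucuccgcucugagc in the hairpin above. An alignment of 19 nt that starts at the first loop base, directly after the 3′ end of miR-96-5p (chr7:129414560-129414578), was the only member outside the arms with a ratio above 0 in all 8 tables. It was singled out after its values were seen. Its log2 ratios were 5.32 and 6.56 at 3 d, then -1.23, -1.32 and -0.63 at 13 d, and -0.83, -2.79 and -2.84 at 31 d. In each 3 d table its ratio was the highest of any member tested there, and the 3 d values did not overlap with the later ones. The 3 d medians of all alignments (0.81 and 1.58) also lay above the later ones (at most 0.61). How many of all alignments separate in this way was not counted. The mean at 3 d was 5.94 (SE 0.97, limma over 36827 alignments, adjusted p = 0.000288), and it fell by 7.0 at 13 d against 3 d (adjusted p = 0.000426) and fell by 8.09 at 31 d against 3 d (SE 1.25, adjusted p = 0.000308). The mature miR-96-5p had log2 ratios of 0.30 and 2.32 at 3 d, then -0.61, -0.65 and -2.21 at 13 d, and -0.70, -4.26 and -2.20 at 31 d. The full 20-nt loop was listed in 7 tables, at 4.12 in the first replicate at 3 d and from -3.03 to 0.35 in the later tables.

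**Figure D4:**
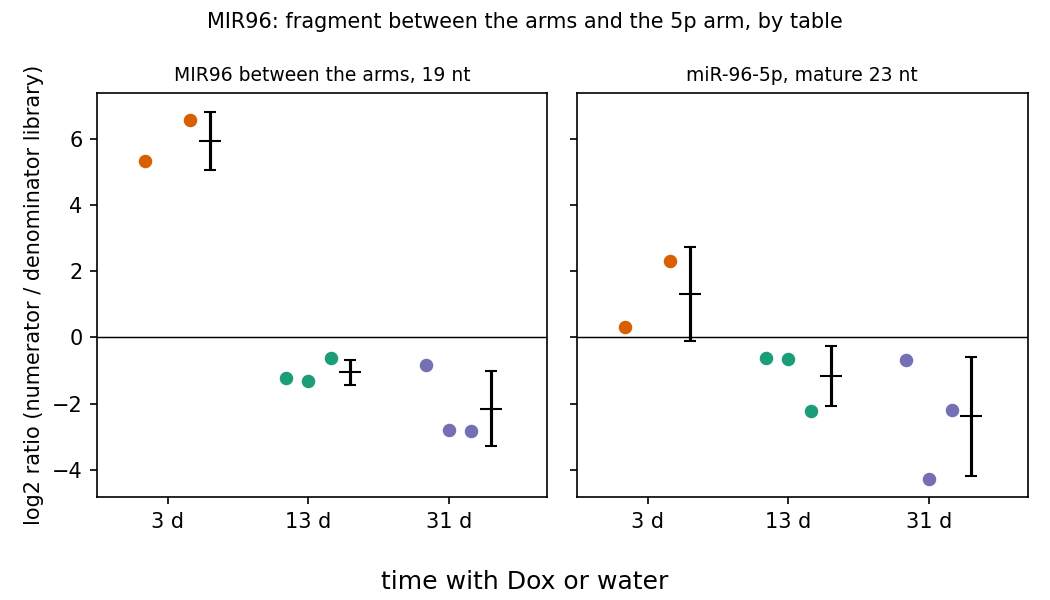
Log2 ratio (y axis) by day (x axis) of the 19-nt fragment between the arms of MIR96 (left) and of the mature 23-nt miR-96-5p (right); points are tables, black marks the mean and SD. The fragment lies at 5.32 and 6.56 at 3 d and below 0 in all 6 later tables.

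The ratio also moved with the length of the alignment, in a direction that differed between tables. In the third replicate at 3 d, miR-182-5p ran from -0.76 at 18 nt to 3.09 at 26 nt while the median of all alignments ran from 2.32 down to 0.019. In the first replicate at 3 d it ran from -0.63 to 1.81 over those lengths, and the median from 1.30 to 0.41. In the second replicate at 31 d, miR-96-5p ran from 0.56 down to -5.38 between 21 and 24 nt, and miR-182-5p from 1.03 to -4.67 between 19 and 27 nt. In that table the median of all alignments was 0.96 at 18 nt and -4.17 at 27 nt. In the first replicate at 31 d the lengths of miR-96-5p differed by 0.92 and the medians over all alignments lay between -0.59 and 0.27. Centred on the median of each length, the 31 d minus 3 d difference was -1.14 for miR-182-5p (limma, adjusted p = 0.149) and -0.76 for miR-96-5p (adjusted p = 0.404).

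**Figure D5:**
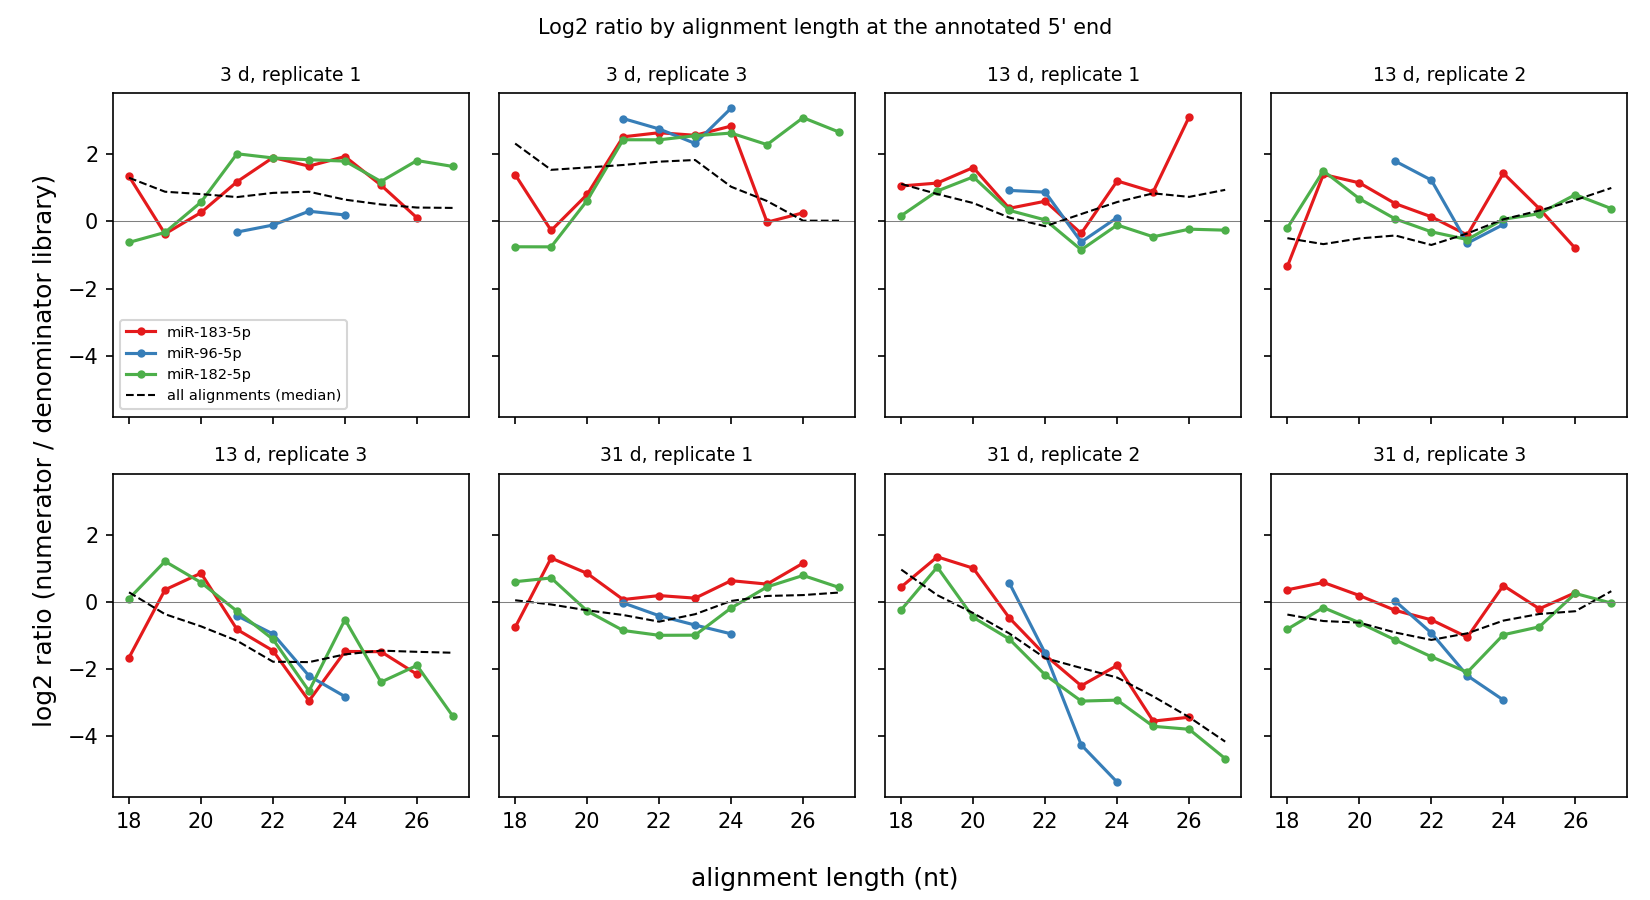
Log2 ratio (y axis) against alignment length (x axis) for forms with the annotated 5′ end, 1 panel per table; coloured lines are the 3 arms and the dashed line is the median of all alignments above 0 in every table. In the second replicate at 31 d the arms fall with length alongside the dashed line.

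Outside the cluster, the 3 stacks closest to miR-182-5p over the 8 log2 ratios (Euclidean distance) began on chromosome 1 at 173836882 (minus strand), on chromosome 17 at 16343349 (plus) and on chromosome 4 at 109543237 (plus). Their distances were 1.33, 1.40 and 1.54, beside a median of 5.13 over all stacks. Within the cluster miR-183-5p lay at 2.25, with 10 outside stacks closer, and miR-96-5p at 2.29, with 11 closer. The upstream 5′ end of miR-183-5p lay at 6.89, with 881 closer. Distances are a description over 8 tables whose shifts the stacks share.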

How the data were processed

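The deposited tables hold, per alignment, a ratio of 1 library to the other that the authors computed from their own scaled values. The submitters' processing notes name Bowtie2 2.2.9 and hg19 (GRCh37). A further 4 value columns per table (32 over the series) do not say which library they hold and were left out, so depth is unknown and no counting interval is given. The placement of reads that match several positions is not stated in the sources used.

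RefSeq arms were laid on the hg19 windows by their offset in the hairpin, whose length equalled the window's. Positions are 1-based. Log2 ratios of stacks and of single alignments were fitted in limma 3.58.1 (in R 4.3.3, with robust empirical Bayes), giving each day its own mean across 8 tables, adjusted by Benjamini-Hochberg at 0.05. Alignments with a ratio of 0 in a table of that day were left out. Named were the 3 hairpins and 6 arms, each with the fullest stack within 3 nt of its annotated 5′ end, and the 3 stacks nearest to miR-182-5p. The other stacks, the loop fragment and the comparisons of 5′ ends were picked after their values were seen, and the members and lists were chosen with earlier results of these data known. Tested on simulated data for 1124 stacks, changes of log2 size 2 were called for 32% at 3 d, 50% at 13 d and 52% at 31 d, those of size 4 for 84%, 98% and 98%, and unchanged stacks for 0.758%, 0.541% and 0.433%. The simulated tables had independent noise and no shared shift or length trend. These shares therefore do not give the error rate in the real tables, which had both. Alternatives were centring, centring by length, means per stack, whole arms, exact mature forms, lengths of 20 to 24 nt, each day alone, a replicate block and leaving out each table. Python 3.11.15 with pandas 2.3.3 and scipy 1.17.1 was used.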

Additional observations from a re-analysis of the deposited data

Results flagged for a closer look

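The fall of miR-182-5p at 31 d against 3 d (-3.15, SE 0.95, limma adjusted p = 0.0139) and that of miR-96-5p (-3.15, SE 1.08, adjusted p = 0.027) were flagged because the days differed by a test of the difference itself. The 19-nt fragment between the arms of MIR96 was flagged for the same reason, at 13 d against 3 d (-7.0, SE 1.25, adjusted p = 0.000426) and at 31 d against 3 d (-8.09, SE 1.25, adjusted p = 0.000308). The 5′ end 2 nt upstream of miR-183-5p, minus the annotated end, was flagged because both 3 d tables were below 0 and all 6 later tables above it, a difference of 3.17 that did not pass an exact permutation test after adjustment (adjusted p = 0.25). These signs are of medians over 3 lengths, and at 24 nt the difference was above 0 in both 3 d tables. Over whole stacks, not matched on length, the upstream end was the higher in the third replicate at 3 d (2.04 against 1.39). In the first it was the lower (0.81 against 1.18).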

How the results depend on the processing

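The differences at 31 d against 3 d for miR-182-5p and miR-96-5p, and the 3 d value of miR-183-3p, kept their direction but not their calls under centring. Centring each table gave -1.38, -1.38 and 1.36 for them, and centring by length -1.14, -0.76 and 1.23. Centring turned miR-183-5p to 0.21 at 13 d, 0.28 at 31 d, 0.12 for 13 d minus 3 d, 0.19 for 31 d minus 3 d and 0.070 for 31 d minus 13 d, and miR-96-5p to 0.052 at 13 d. Centring by length turned miR-183-5p to 0.42, 0.45, 0.072, 0.11 and 0.034 in that order, miR-183-3p to 0.011 for 13 d minus 3 d, and miR-96-5p to 0.41 at 13 d and 0.20 for 13 d minus 3 d. None of these turned values was called before or after, and the cause was not tested. For the 5′ end 2 nt upstream of miR-183-5p, centring made the differences pass at 2.00 (13 d minus 3 d) and 2.41 (31 d minus 3 d), and centring by length at 2.40 and 2.97, while its calls at 13 d and 31 d were kept. The MIR96 loop fragment kept its calls under every alternative run for it, all added after the data were seen.

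With lengths of 20 to 24 nt alone, values passed for miR-183-5p (2.10 at 3 d, -2.22 for 13 d minus 3 d, -2.66 for 31 d minus 3 d), miR-183-3p (-2.45 for 31 d minus 3 d), miR-96-5p (-1.67 at 31 d) and miR-182-5p (2.13 at 3 d, -1.39 at 31 d, -2.28 for 13 d minus 3 d). Means per stack turned miR-183-5p at 13 d to 0.046 and miR-183-3p at 31 d to -0.11. Whole arms turned miR-183-5p to 0.54 at 13 d and 0.30 at 31 d, and made miR-96-5p at 31 d (-2.21) and miR-182-5p at 3 d (2.2) pass. With alignments present on that day only, miR-183-3p at 3 d (2.55) and miR-96-5p at 31 d minus 3 d (-2.10) no longer passed. With each day fitted alone, miR-183-3p at 3 d (2.55) no longer passed and miR-96-5p at 31 d (-1.67) did.

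Leaving out each table in turn gave -0.55 to 0.72 for miR-183-5p at 13 d, -0.70 to 0.35 at 31 d and -1.01 to 0.37 for 31 d minus 13 d. For miR-183-3p it gave 1.38 to 3.71 at 3 d, -0.25 to 1.37 at 13 d, -0.16 to 0.57 at 31 d, -3.62 to -1.29 for 31 d minus 3 d and -1.27 to 0.35 for 31 d minus 13 d. For miR-96-5p it gave 0.040 to 2.91 at 3 d, -0.55 to 0.53 at 13 d, -2.23 to -1.06 at 31 d and -4.58 to -1.71 for 31 d minus 3 d. For miR-182-5p it gave 1.71 to 2.43 at 3 d, -0.43 to 0.058 at 13 d, -1.67 to -0.33 at 31 d, -2.67 to -1.95 for 13 d minus 3 d and -3.74 to -2.40 for 31 d minus 3 d. For the 5′ end 2 nt upstream of miR-183-5p it gave 1.64 to 2.6 at 13 d, 1.74 to 2.43 at 31 d, -0.030 to 1.20 for 13 d minus 3 d and -0.53 to 0.43 for 31 d minus 13 d. Within tables at equal lengths it gave -0.069 to 0.29 for miR-96-5p minus miR-182-5p, -0.44 to -0.26 for miR-182-5p minus miR-183-5p, 1.43 to 2.07 for the 5′ end 2 nt upstream of miR-183-5p minus the annotated end, and -0.089 to 0.21 for the downstream minus the annotated end of miR-182-5p. Without matching on length, chosen after seeing the data, the first of these was -0.35 and the last -0.016. A day left with 1 table was assumed to vary like the others.

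Members called at 3 d numbered 1 with 20 to 24 nt, 1 after centring and 4 after centring by length, of which 2 were higher and 2 lower. After these centrings they numbered 3 and 5 at 13 d, and 4 and 7 at 31 d, all higher on both days. Uncentred, 2 were higher and 3 lower at 31 d. Over all alignments, calls at 3 d were 650 with 20 to 24 nt, 3565 centred and 9280 centred by length. At 13 d they were 3508 with 20 to 24 nt, 5109 centred and 7152 centred by length, against 6117 of 28336 uncentred. At 31 d they were 2189 centred and 4128 centred by length, against 3978 of 42925 uncentred. Of the centred and length-centred calls, 2547 and 3689 were higher at 13 d, and 992 and 2098 at 31 d. Leaving out tables gave 1 to 3 members at 3 d and 0 to 5 at 31 d, and 1006 to 3030, 2512 to 6514 and 1293 to 4453 over all alignments at 3, 13 and 31 d.

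Same-numbered tables of different days correlated at -0.19 to 0.49, which does not settle whether the numbers pair them. Those of replicate 1 correlated at 0.28, 0.29 and 0.49, and those of replicates 2 and 3 at -0.19 to 0.12. The main fit used no pairing across days. With a replicate block the 31 d minus 3 d values were -2.87 for miR-182-5p, -3.03 for miR-96-5p and -3.04 for miR-183-3p, which then passed, and no other call on these differences changed. Exact sign-flip tests over the tables of a single day were not run, since 2 or 3 tables cannot pass. Over 8 or 6 tables they gave no arm an adjusted p under 0.583. Depth per library is unknown, and with 2 to 3 tables a day changes of log2 size 2 were often missed in simulated data.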

Other observations

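Beyond the lengths of the rule, MIR182 held 19 alignments of 28 to 42 nt on the minus strand, of which 11 were above 0 in some table, MIR183 held 15 (5 above 0) and MIR96 held 2 (0 above 0). On the plus strand of the windows, 7 alignments of 18 to 27 nt were listed in MIR183 (2 above 0 in some table), 6 in MIR96 (1 above 0) and 0 in MIR182. A 28-nt form of miR-182-5p with the annotated 5′ end was above 0 in all 8 tables, with log2 ratios of 1.33 and 2.69 in the 3 d tables, -0.52, -0.11 and -4.31 in those of 13 d, and -0.21, -6.05 and -0.48 in those of 31 d. The third replicate at 13 d and the second at 31 d stood far below the rest, as they did for the longer forms within the rule.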
